A study of Homo sapiens and synthetic construct with 14 samples.

Results

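The negative controls of the genome-wide RE1 library, called WGREST by its makers, are the designed oligos whose project is NegCtrl in its 4 count tables. They were taken by that project name alone, with no measured value used. Of 506 such names, 505 had counts, among 23789 elements in the library. Each oligo was cloned in the silencer position beside 5 enhancers, labelled En02, En09, En11, En19 and En21, which gave 2487 counted negative control constructs of 116831. A mean plasmid count of at least 20 was reached by 2349 of them, from 498 elements, while 138 constructs fell below it and 7 elements had no construct above it. The number of elements measured beside all 5 enhancers was 415. Beside 4, 3, 2 and 1 enhancers there were 47, 19, 12 and 5. The reference was the project named random, with 803 counted elements. At the same minimum it held 780 elements and 3776 constructs, and 721 elements were measured beside all 5 enhancers.

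The pool was electroporated with the NEON system into 4 established human lines, namely GM12878 (B lymphoblastoid), HepG2 (liver cancer), K562 (chronic myeloid leukaemia) and SK-N-SH (neuroblastoma). Cells recovered for 24 hours before RNA was taken, and the GFP reporter message was captured and counted by barcode in 4 RNA libraries per line. These were compared with 4 libraries of the plasmid pool, which all lines share. The series design text calls the 4 libraries biological replicates and does not say how separate the cultures were. A transfected plasmid is not a chromosomal locus, so every value below is of a reporter.

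RE1 is the DNA motif bound by REST, a repressor that recruits histone-modifying corepressor complexes and keeps neuronal genes off in non-neuronal cells. A massively parallel reporter assay counts barcoded reporter messages against the plasmid they came from. In the paired form used here an enhancer drives the reporter and a second element is placed with it, so that a silencer can be seen as a drop in enhancer-driven message. Such an assay needs sequences with no designed function on which to set its zero. The projects named random and NegCtrl are taken as such sets from their names alone.

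The names of the negative controls carry a chromosome and a position, spread over 23 chromosomes with between 2 and 50 elements on each. In 150 names a pair of alleles follows the position, and in 355 none does. Where the first allele is a single base, it equalled the base of hg38 at 45 of 143 positions (31.5%), so hg38 was not used for them. Positions are therefore printed as the names give them, without a gene annotation or a sequence, since no source used here names their build. None gives the rule by which these controls were chosen. The depth ran from 35.2 to 54.5 M counts (M, mega) in plasmid libraries and from 50.2 to 94.9 M in RNA libraries. Negative controls held 1.12% to 1.13% of the plasmid counts and 0.634% to 0.855% of the RNA counts. K562 RNA library 1 was the deepest of the 20 libraries, and the main results it moves are given with and without it. Negative control constructs had a median of 20 barcodes and of 138 mean plasmid counts, against 40 barcodes and 269 counts in random constructs.

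Before any reference is subtracted, the RNA over plasmid ratio (log2, libraries scaled to total counts) showed how strong each enhancer was beside a negative control. The median in K562 was -0.045 ± 0.042 (SD over 4 RNA libraries) beside En21, -0.81 ± 0.06 beside En09 and -2.45 ± 0.40 beside En19. It was -3.89 ± 0.31 beside En11 and -4.96 ± 0.35 beside En02. En02 and En11 also gave the lowest medians in GM12878 (-2.64 ± 0.06 and -2.21 ± 0.13), HepG2 (-3.64 ± 0.16 and -3.11 ± 0.13) and SK-N-SH (-4.46 ± 0.12 and -3.85 ± 0.18). These 2 are called the weak enhancers below. Beside them a median negative control construct gave only 5.75 (En02) and 7.5 (En11) RNA counts per library in K562, against 232 beside En09. GM12878 differed in that the weak enhancers lay closer to the others, with 29.2 counts beside En02. The medians of the ratio are pooled over the 4 libraries, while the SD is over the medians of single libraries, which can lie lower. In GM12878 the single libraries ran from -2.97 to -2.85 beside En02 and from -2.78 to -2.47 beside En11. In HepG2 they ran from -4.02 to -3.67 and from -3.54 to -3.22, so each library lay below the pooled median.

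The negative controls gave less reporter RNA than random elements in every line. Pooled over enhancers, the median log2 RNA over plasmid of the negative controls minus that of random elements was -0.44 in K562, -0.37 in SK-N-SH, -0.40 for HepG2 and -0.33 for GM12878. In the single RNA libraries it ran in K562 from -0.54 to -0.50, in SK-N-SH from -0.45 to -0.40, in HepG2 from -0.60 to -0.45 and in GM12878 from -0.39 to -0.35. Each of the 16 libraries was thus below 0. The single-library values lie lower than the pooled ones, in which the 4 libraries are averaged before the log is taken. HepG2 library 4 was the lowest of its line. In the authors' deposited log2 fold changes, listed for 1899 of these constructs, the differences in this line order were -0.60, -0.47, -0.50 and -0.23.

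In the pooled values of HepG2, K562 and SK-N-SH the difference was larger beside En09, En19 and En21 than beside the weak enhancers. Beside En09 it was -0.71 in K562, -0.72 in SK-N-SH, -0.62 for HepG2 and -0.38 for GM12878. Beside En21 it was -0.87, -0.72, -0.52 and -0.38 in the same order, and beside En19 it was -0.69, -0.52, -0.46 and -0.27. In K562 the 4 libraries lay between -0.91 and -0.84 beside En21 and between -0.74 and -0.66 beside En09, so these ranges did not overlap. Beside En11 the values were -0.28, -0.28, -0.19 and -0.28. Beside En02 they were -0.25, -0.19 and -0.10 in GM12878, HepG2 and K562, and in SK-N-SH -0.02, which turned to 0.03 with a plasmid minimum of 100 and to 0.01 in the deposited fold changes. In HepG2 the order did not hold in library 4. That library gave -0.64 beside En02 and -0.59 beside En11, against -0.56 beside En19 and -0.57 beside En21. The difference between enhancers was not tested as such at this level, and counts are lowest beside the weak ones.

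Barcode number and depth moved with the class and are given beside it. Among negative control constructs in K562, the median effect against random was -0.64 with 1 to 9 barcodes (450 constructs), -0.59 with 10 to 19 (694), -0.50 with 20 to 39 (692) and -0.24 with 40 or more (513). Random constructs went from -0.21 to 0.06 between the first and the last of these bins. With at least 40 barcodes in both classes, a setting chosen after the data were seen, the difference between the class medians was -0.31 in K562, -0.26 in SK-N-SH, -0.38 for HepG2 and -0.21 for GM12878. The negative controls stayed below random in each line. How much of the difference goes with barcode number beyond these values was not tested.

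Each construct was then tested against the random elements beside its enhancer with edgeR's quasi-likelihood test and Benjamini-Hochberg adjustment over all 112451 constructs of a line. The effect is log2 RNA over plasmid with the median random construct beside the same enhancer at 0. In K562, 1132 of 2349 negative control constructs were lower (48.2%) and 379 higher (16.1%), where 37.3% of all constructs were lower and 41.5% higher. In SK-N-SH 1060 were lower (45.1%) and 325 higher (13.8%), beside 40.4% and 39.3% of all constructs. In HepG2 784 were lower (33.4%) and 145 higher (6.17%), beside 29.1% and 36.6%. In GM12878 329 were lower (14.0%) and 127 higher (5.41%), beside 15.7% and 24.4%. The share of lower calls was thus below that of all constructs in GM12878 and above it in the other lines, and the share of higher calls was below it in each line. Without any 1 of the plasmid libraries, GM12878 gave 198 to 211 lower calls and 84 to 97 higher calls.

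Random constructs, whose median effect was close to 0 (-0.04 in K562), were called lower in 35.5%, 35.5%, 25.4% and 13.1% and higher in 37.4%, 37.2%, 31.2% and 21.7% of 3776 for K562, SK-N-SH, HepG2 and GM12878. A call against the random median was thus common among random elements themselves. Calls also went with barcode number. Among random constructs in K562, 27.7% were lower and 25.1% higher with 1 to 9 barcodes, and 37.2% and 44% with 40 or more.

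The split of the calls moved with the scaling. Lower calls were 74.9%, 76.5%, 84.4% and 72.1% of the negative control calls for K562, SK-N-SH, HepG2 and GM12878. With the zero on the summed counts of random elements, which strong random elements dominate, they were 94.5%, 96.1%, 97.1% and 91.3%. With TMM over all constructs and no term for the enhancer they were 70.5%, 68.2%, 72.8% and 58.6%. More negative control constructs were lower than higher under each of these scalings, in each line. Shares over all constructs were taken at the main scaling only, so the other splits have no background beside them.

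The negative controls had a shorter upper tail than random elements. In K562, 14 of 2349 constructs had an effect above 2 (0.596%), against 291 of 3776 random constructs (7.71%). Among these 14, the element chr16:54856933 is counted once beside each of the 5 enhancers. The counts were 4 against 232 for SK-N-SH, 1 against 202 for HepG2 and 5 against 98 for GM12878. Beside En02 in K562 the 95th percentile was 0.99 for negative controls and 3.55 for random elements, and beside En09 it was 0.96 and 2.30. The lower tail went the other way, with 32.9% of negative controls and 17.2% of random constructs below -1 in K562, beside 22.5% of all constructs. Few negative controls reached the level of the library's positive controls, which had a median effect of 1.84 in K562. Compared beside the same enhancer, 26 of 493 negative controls lay above the median positive control beside En09 in K562, 10 of 456 beside En21, and 1 each beside En02, En11 and En19.

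Over enhancers, the 415 complete elements were tested with limma on the mean of the 5 log2 values in each library. In K562, 268 elements were lower (64.6%) and 59 higher (14.2%), beside 42.9% lower and 43.9% higher among all 21378 elements. In SK-N-SH, 256 were lower and 59 higher, beside 46.5% and 41.0%. In HepG2, 257 were lower and 20 higher, beside 39.4% and 37.5%. In GM12878, 169 were lower and 11 higher, beside 29.8% and 24.5%. The median element effect was -0.59, -0.47, -0.68 and -0.69 in K562, SK-N-SH, HepG2 and GM12878. That of random elements was -0.09, -0.08, -0.21 and -0.21, so the zero of this mean over enhancers lies above the median random element in each line. These counts moved with the settings. On summed random counts as the zero, 300 elements were lower and 1 higher for GM12878, 392 and 1 for HepG2, 403 and 2 for K562, and 394 and 3 for SK-N-SH. With a prior count of 5 in place of 0.5, higher elements were 122 in K562 and 107 in SK-N-SH. How many of all elements were called at these other settings was not counted, so these counts have no background share beside them.

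Across lines, 129 of 415 negative controls (31.1%) were lower in all 4 lines, against 128 of 721 random elements (17.8%) and 21.8% of all 21378 elements. Higher in all 4 lines were 4 negative controls (0.964%) and 117 random elements (16.2%), beside 19.3% of all elements. In no line called were 25 negative controls (6.02%) and 33 random elements (4.58%), beside 1.91% of all. Below 0 beside all 5 enhancers in all 4 lines were 40 negative controls (9.64%) and 42 random elements (5.83%), where 10.9% of all elements were, so the share of negative controls was near the background. Above 0 in all of these 20 combinations were 0 negative controls and 65 random elements (9.02%), beside 12.2% of all elements. Lines share their plasmid libraries, so these counts are not 4 independent measurements. Elements with and without alleles in the name had close medians in K562 (-0.50 and -0.59, with 113 and 302 elements), and 17.7% and 12.9% of them were higher there.

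The rule took the 6 lowest negative controls by mean over lines among those passing in at least 1 line. They passed as lower in all 4 lines. The lowest was chr5:31316670, at -2.18 ± 0.23 (SE) for K562, -1.89 ± 0.18 for SK-N-SH, -2.29 ± 0.35 for HepG2 and -2.57 ± 0.39 for GM12878, with 43 barcodes over 5 enhancers and 3 beside the thinnest. These values rest in part on counts of 0, since beside En11 its RNA counts were 0, 0, 0 and 0 for GM12878 and 0, 0, 0 and 1 for K562. With a prior count of 5 the values were -1.01 for K562, -0.82 for SK-N-SH, -1.16 for HepG2 and -1.34 for GM12878, each still past the threshold of the limma test. Next was chr1:65979308, with 122 barcodes, at -1.92, -1.93, -2.39 and -2.08 in the same line order. Its HepG2 libraries lay between -3.25 and -1.46. The others were chr11:113492793, chr13:100644658, chr7:96368776 and chr9:121708667, with means over lines of -2.01, -2.01, -1.99 and -1.98. A prior count of 5 moved the K562 value of chr11:113492793 from -2.43 to -1.03, that of chr7:96368776 from -2.07 to -1.12 and that of chr9:121708667 from -1.51 to -0.74.

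Of these 6, chr13:100644658 had the most barcodes, 180, and in K562 its value beside En02 stood apart from those beside the other enhancers. Beside En09 its K562 RNA counts were 41, 37, 41 and 27 over a mean plasmid count of 378, where the median random construct would have given a mean of 579. The effect there was -3.97 ± 0.12 (SE, n = 4 RNA libraries, edgeR adjusted p = 4.1e-16), the third largest decrease by the rule in K562. Beside En02 its counts were 10, 15, 24 and 10, and the effect was -0.12 ± 0.23 (edgeR adjusted p = 0.64). Beside En09 and En21 it was also lower in SK-N-SH (-2.89 and -2.59), HepG2 (-2.22 and -1.88) and GM12878 (-1.56 and -1.57), each with the 4 libraries on one side. As means of log2 values with a prior count of 0.5, K562 gave -2.80 beside En11, -2.58 beside En19 and -3.42 beside En21. In GM12878 the lowest such value was -4.95 beside En11, where the RNA counts were 0, 0, 0 and 9. In HepG2 the interaction test described below did not pass for this element (limma adjusted p = 0.28).

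The 6 highest negative controls had means over lines of 0.45 to 1.20. They were chr16:54856933, chr14:61747022, chr15:39841948, chr1:53304050, chr3:125463868 and chr11:49981795, with 160 to 370 barcodes each. Their direction depends on where the zero is set. With the zero on summed random counts, the K562 effect turned to -0.051 for chr14:61747022, -0.012 for chr1:53304050, -0.33 for chr3:125463868 and -0.12 for chr11:49981795, while it stayed above 0 for chr16:54856933 (3.20) and chr15:39841948 (0.23).

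The element chr14:61747022 was higher in all 4 lines when compared with the median random element. Beside En09, where it had 95 barcodes and a mean plasmid count of 706.5, its RNA counts were 2022, 1749, 2153 and 2115 in GM12878. HepG2 gave 3585, 3009, 2062 and 2783, K562 gave 7002, 4746, 4073 and 3054, and SK-N-SH gave 2818, 3868, 2776 and 3570. In that line order the effects beside En09 were 1.49 ± 0.09, 1.80 ± 0.08, 2.13 ± 0.07 and 2.19 ± 0.06 (SE, n = 4 RNA libraries each). Every library was above 0. Beside En02 the effect was near 0 in GM12878 (0.07 ± 0.40), HepG2 (0.28 ± 0.29) and K562 (-0.10 ± 0.21), with 9 to 21 counts per library in K562. In SK-N-SH it passed as higher there, at 0.73 ± 0.15 (edgeR adjusted p = 1.0e-04) with 25, 38, 40 and 39 counts. Over enhancers the effect was 0.69, 0.85, 0.85 and 1.24 (limma adjusted p = 0.0031, 1.3e-04, 1.8e-08 and 2.2e-11). Beside En09 it stayed above 0 with the zero on summed random counts, at 1.77 for SK-N-SH, 1.46 for HepG2 and 1.28 for GM12878. Over enhancers that zero gave 0.37 for GM12878, 0.27 for HepG2, -0.051 for K562 and 0.56 for SK-N-SH, and the call was lost in HepG2 and K562.

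The other elements higher in all 4 lines were chr15:39841948 (0.52 for GM12878, 0.58 for HepG2, 1.14 for K562 and 1.12 for SK-N-SH), chr1:53304050 (0.56, 0.53, 0.89 and 0.77 in that order) and chr7:23630951 (0.30, 0.31, 0.55 and 0.39). The last was not reached by the naming rule, is given to complete the 4, and was not run under other settings. Against summed random counts chr15:39841948 was at 0.21, 0.0054, 0.23 and 0.44 in the same line order, and it lost its call in GM12878 and HepG2 only. With that zero chr1:53304050 was at 0.24, -0.041, -0.012 and 0.092, and none of these passed the limma test. Beside En09 chr15:39841948 gave 3128, 2149, 2048 and 1536 counts in K562 and an effect of 1.80 ± 0.06. GM12878 library 3 of this element lay at -0.07 over enhancers, below the other 3 libraries of that line at 0.55 to 0.90.

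Lines were compared over their 16 RNA libraries, in which the shared plasmid values cancel. The limma F test called 133 of 415 negative controls (32.0%), against 410 of 721 random elements (56.9%) and 70.9% of all 21378 elements. Negative controls had fewer barcodes and a wider error. The median SE of the element effect in K562 was 0.12 for them and 0.08 for random elements, and in GM12878 0.31 and 0.18. The part of error in the lower share of calls was not tested. Over lines the median range of the negative controls was 0.71, and 84 of them had a range above 1. Of the 6 pairs, K562 against GM12878 gave most calls among negative controls, 100 where 52.3% of all elements were called. HepG2 against GM12878 gave 73 (background 50.8%), SK-N-SH against GM12878 75 (49.8%) and K562 against HepG2 78 (43.5%). SK-N-SH against HepG2 gave 45 (35.3%), and SK-N-SH against K562 gave fewest, 27 (33.0%).

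One element, chr16:54856933, had a range over lines of 4.32, from -0.21 in GM12878 to 4.10 in K562. Beside En19 it had 38 barcodes and a mean plasmid count of 340.5. Its K562 RNA counts there were 14139, 9369, 8268 and 6193, where the median random construct would have given a mean of 155. In GM12878 they were 640, 408, 668 and 556, in HepG2 530, 347, 368 and 459, and in SK-N-SH 267, 285, 344 and 367. The 4 K562 libraries were the high ones, and they did not overlap those of another line.

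In K562 the effect of chr16:54856933 was 5.96 ± 0.21 (SE, n = 4 RNA libraries) beside En19, 5.37 ± 0.28 beside En02 and 5.37 ± 0.27 beside En11. It was 2.03 ± 0.10 beside En09 and 2.19 ± 0.12 beside En21, the enhancers that were already strongest in K562. Every one of the 20 K562 values lay above 0. K562 library 1 stood above the other 3 beside each enhancer, at 6.66 against 5.58 to 5.72 beside En19. Without that library the effect over enhancers was 3.86 in place of 4.10. It was then 5.63 beside En19, 4.86 beside En02 and 4.89 beside En11. In SK-N-SH the effect over enhancers was 0.60 ± 0.07, and it turned to -0.08 with the zero on summed random counts. In HepG2 (0.29 ± 0.13) and GM12878 (-0.21 ± 0.30) it did not pass the test. K562 differed from each of GM12878, HepG2 and SK-N-SH (limma adjusted p = 6.4e-12, 1.6e-10 and 6.7e-10).

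The next largest range was that of chr4:12942876, from -2.15 ± 0.49 in GM12878 through -0.65 ± 0.23 in HepG2 to 0.46 ± 0.11 for SK-N-SH and 0.51 ± 0.11 for K562. Counts of 0 were frequent outside K562 and SK-N-SH. Beside En11, with 8 barcodes and a mean plasmid count of 46, its RNA counts were 0, 0, 0 and 43 for GM12878, 0, 0, 3 and 21 for HepG2 and 9, 10, 17 and 10 for K562. With a prior count of 5 in place of 0.5 the GM12878 value was -1.08 and that of HepG2 was -0.16. With the zero on summed random counts the K562 and SK-N-SH values turned to -0.39 and -0.21. Beside En09, with 59 barcodes, no count was 0 and the effects were 0.21 ± 0.15, 0.05 ± 0.10, 0.91 ± 0.07 and 0.51 ± 0.07 for GM12878, HepG2, K562 and SK-N-SH.

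The other ranges named by the rule were those of chr16:56492439, 1.83, and chr9:130776119, 1.69. The first was 1.07 ± 0.08 for K562, 0.78 ± 0.09 for SK-N-SH and -0.76 ± 0.27 for HepG2, where 3 of 4 libraries were below 0 and its counts beside En02 were 34, 0, 9 and 0. With a prior count of 5 its HepG2 value was -0.19 and no longer passed (limma adjusted p = 0.22). With the zero on summed random counts its K562 and SK-N-SH values were 0.17 and 0.10 and no longer passed (limma adjusted p = 0.115 and 0.30). The element chr9:130776119 was at -1.30 ± 0.11 in K562 and -0.01 ± 0.14 in HepG2. Its GM12878 libraries fell into -0.27 and -0.36 on one side and -3.10 and -3.08 on the other.

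Whether a negative control acted alike beside the 5 enhancers was tested by the interaction of enhancer and molecule, with the library as a fixed term. The test called 318 of 415 negative controls in K562 (76.6%), 262 in SK-N-SH (63.1%), 103 for HepG2 (24.8%) and 65 for GM12878 (15.7%). Among all elements it called 90.3%, 82.8%, 56.8% and 24.9%, and among random elements 87.8%, 79.2%, 45.4% and 20.7%. Most negative controls were called in K562 and SK-N-SH. In each line their share was below that of random elements, which was itself below that of all elements. These shares were not adjusted for the wider error of negative controls. Leaving out single RNA libraries gave 103 to 113 calls in GM12878.

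The order of the 415 negative controls was closest among the stronger enhancers. As a description across elements, which share libraries and a plasmid pool, Spearman's rho between En09 and En21 was 0.83 in K562, 0.83 in SK-N-SH, 0.76 for HepG2 and 0.64 for GM12878. Between En09 and En19 it was 0.67, 0.75, 0.79 and 0.53. En11 with En09 gave 0.32, 0.45, 0.27 and 0.27. En02 with En09 gave 0.04, 0.08, 0.12 and 0.10, and its counts per construct were among the lowest. Over all its pairs En02 ran from 0.0018 (En21 in K562) to 0.24 (En19 in SK-N-SH). The part of counting error in these values was not tested.

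The element chr5:158074487 showed the largest range over enhancers in GM12878, 6.73. Ranges over enhancers here and below are of mean log2 values with a prior count of 0.5, in which counts of 0 weigh heavily. For this element they were 1.32 beside En02 and -5.42 beside En21. Beside En21, with 8 barcodes, the GM12878 counts of the element were 15, 0, 9 and 0, and the edgeR effect was -4.12 ± 1.20. Beside En02, with 21 barcodes, they were 50, 129, 63 and 38, and the effect was 1.44 ± 0.46. In K562 the same construct beside En21 gave 13, 9, 7 and 6 counts and -4.09 ± 0.26, and beside En02 it gave 6, 10, 6 and 13 counts and 0.57 ± 0.35. Beside En09, with 29 barcodes, the effect was -3.15 ± 0.15 in K562, -2.22 ± 0.17 in SK-N-SH, -1.98 ± 0.20 for HepG2 and -0.73 ± 0.21 for GM12878. The values beside En09 and En21 were thus below 0 in each line, while beside En02 only GM12878 passed the test, as higher.

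The other ranges named by the rule were 5.81 for chr6:112612251 in GM12878, 4.58 for chr1:76144459 and 4.26 for chr17:61968002 in HepG2, 5.95 for chr4:168254262 and 5.35 for chr17:37415071 under K562, and 3.62 for chr7:96368776 and 3.48 for chr2:154808758 in SK-N-SH. In K562, chr4:168254262 was at 0.81 beside En02 and -5.14 beside En09, with 3 barcodes beside its thinnest enhancer. In SK-N-SH, chr2:154808758 was at 1.41 beside En02 and -2.08 beside En11.

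Single constructs are named only where they averaged 100 or more plasmid counts and had one sign in all 4 RNA libraries, and lower values exist outside these limits, down to -6.59 in K562. Within them the largest decrease in K562 was chr17:37415071 beside En09, with 11, 9, 15 and 8 RNA counts against an expected mean of 248 and an effect of -4.50 ± 0.20 (edgeR adjusted p = 1.0e-13). The same construct was the largest such decrease in SK-N-SH, with 19, 15, 12 and 21 counts and -3.31 ± 0.19. Both sets of 4 libraries were far below the random median.

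In GM12878 the largest decrease within these limits was chr16:6038392 beside En02, which had no RNA count in any library over 10 barcodes and a mean plasmid count of 100.5. The median random construct would have given a mean of 23.3, so with a floor of 3 counts per library it was at least 7.76-fold lower. This bound covers counting error only, since amplified reads are not independent molecules. In HepG2 the same construct gave 0, 2, 4 and 0 counts against an expected mean of 13.5.

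The largest increase in SK-N-SH within them was chrX:69674065 beside En02, with 61 barcodes, 126, 187, 161 and 183 RNA counts against an expected mean of 33.2, and an effect of 2.30 ± 0.10 (edgeR adjusted p = 3.4e-16). With TMM and no enhancer term, which sets the zero over all enhancers, it turned to -0.99. In HepG2 and SK-N-SH chr3:125463868 beside En02 was among the 3 largest increases, at 1.67 ± 0.24 and 1.90 ± 0.16, and it likewise turned to -1.04 and -1.39 under that scaling. Beside En09 the same element was at 0.13 ± 0.10 in HepG2 and -0.02 ± 0.08 in SK-N-SH.

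A part of the negative controls was measured again in another plasmid pool. The authors' deposited table for the noncanonical RE1 library, tested in K562, lists 100 elements of its negative control project beside the same 5 enhancers, and 83 of them are among the 415 complete elements above. In that authors' deposited table the median log2 fold change of RNA over plasmid was 3.69 beside En21, 3.43 beside En09, 1.76 beside En19, 0.56 beside En11 and -0.07 beside En02. Its positive controls had medians of 5.13, 4.88, 4.11, 3.29 and 3.38. En21 and En09 were strongest and En02 weakest in both pools.

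The order of single negative controls in the authors' deposited table was close to that in the genome-wide library beside the stronger enhancers. Spearman's rho across elements was 0.96 beside En09 (99 elements), 0.93 beside En19 (98) and 0.87 beside En21 (96), and 0.39 beside En02 (95) and 0.15 beside En11 (87). The points share a cell line and an assay, and the barcodes are of separate pools. Averaged over enhancers relative to the median negative control, rho was 0.94 and Pearson's r 0.93 over the 83 elements. Of the 47 that were lower in K562 in the genome-wide library, 37 lay below the median negative control of the authors' deposited table. Of the 24 called in neither direction 22 lay above it, and so did 12 of the 12 that were higher. The zeros differ, since calls are against the random median and these values against the median negative control. The median K562 effect of the 83 was -0.52, so an uncalled element tends to lie above their middle. These counts are thus not evidence apart from the correlation.

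The lowest of the 83 in the authors' deposited table was chr2:150206278, at -1.05 relative to the median negative control over enhancers, and the highest was chr12:54590879, at 1.18. In the genome-wide K562 libraries the first lay between -2.30 and -1.54, with an effect of -1.87 ± 0.17, and the second between 0.32 and 0.49, with 0.38 ± 0.05. The highest construct beside En02 in the authors' deposited table was chr4:143847705. There it had a log2 fold change of 4.01 with a standard error of 0.08, above the median positive control there. In the genome-wide K562 libraries it gave 3, 1, 3 and 2 counts over 19 barcodes and an effect of -0.47 ± 0.51. It was picked for its value in the authors' deposited table, and the reason for the difference was not tested.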

How the data were processed

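Barcode counts per construct were deposited for 4 RNA libraries per line and 4 plasmid libraries, per the file headers, as the authors summed them. The deposited tables also give a mean plasmid signal, a log2 fold change of RNA over plasmid and, as another value, its standard error. For the noncanonical library the authors deposited mean signal, log2 fold change, standard error and p-value, without counts. Aligner, counter and genome build are not given in the sources used here.

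Each library was scaled per enhancer on the median log2 ratio of the random constructs beside it (prior count 0.5). Constructs whose plasmid counts averaged 20 or more were tested with edgeR 4.0.16 (quasi-likelihood), elements with limma 3.58.1 (trend), in R 4.3.3, at an adjusted p under 0.05. DESeq2 1.42.0 was an alternative. Python 3.11.15, numpy 2.4.6, pandas 2.3.3, scipy 1.17.1 and pysam 0.24.0 were used. Scaling on summed counts of random elements, alone or with negative controls, on TMM and on other minimums, priors and sets of libraries were alternatives. Entries that repeat a reference allele under another project (19325) and other entries without counts (3169) were dropped. The deposited fold change has the direction of the RNA over plasmid ratio computed here (lowest Pearson's r across constructs 0.998, in HepG2). The tests were checked on simulated data.

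Elements were named by rule. The 6 highest and 6 lowest by mean over lines were complete elements that passed in at least 1 line. In that line all 4 RNA libraries had the same sign. In each line, the 3 largest increases and decreases were taken among constructs past the threshold that averaged 100 or more plasmid counts. All 4 RNA libraries of these had 1 sign. The 4 largest ranges over lines were taken among elements past the F test. Per line, the 2 largest ranges over enhancers were taken among those past the interaction test. Passing these tests was thus a condition of being named. The members, lists and tests were chosen with earlier results of these data known.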

Additional observations from a re-analysis of the deposited data

Results flagged for a closer look

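Dixon's test over the 4 libraries of a line was run on 136 sets of values and picked out 11 values, where chance alone picks about 1 in 20. K562 RNA library 1 stood above its group for chr16:54856933, at 4.83 over enhancers, 6.66 beside En19, 6.31 beside En02 and 6.26 beside En11. K562 library 3 was the lowest for the median difference from random beside En21 (-0.91). GM12878 library 2 was low for chr5:31316670 (-3.65). For chr13:100644658, GM12878 library 4 was high over enhancers (-1.31) and beside En11 (-1.67), and HepG2 library 4 was low (-2.22). GM12878 library 3 was low for chr16:66222729 beside En02 (1.01), and HepG2 library 1 was high for chr1:65979308 beside En02 (-2.03).

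The limma F test over lines called 32.0% of negative controls and 70.9% of all elements. The 4 elements named for their range over lines were picked among those it called, so their passing was fixed by the rule. With these 4, it passed for 11 of the named elements. Their ranges of effect over the 4 lines were 4.32 for chr16:54856933, 2.66 for chr4:12942876, 1.83 for chr16:56492439, 1.69 for chr9:130776119, 1.47 for chr1:76144459, 1.26 for chr13:100644658, 0.71 for chr3:125463868, 0.63 for chr11:49981795, 0.61 for chr15:39841948, 0.55 for chr14:61747022 and 0.36 for chr1:53304050.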

How the results depend on the processing

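Values below run GM12878, HepG2, K562, SK-N-SH unless said otherwise. Counts of calls are of negative controls, and the share over all constructs or elements was not computed at these settings. With the zero on summed random counts, lower construct calls were 570, 1452, 1979 and 1930 and higher calls 54, 43, 115 and 78. Elements were then lower in 300, 392, 403 and 394 and higher in 1, 1, 2 and 3. With random and negative controls summed, lower calls were 1252, 1873 and 1754 in HepG2, K562 and SK-N-SH, and higher calls 69, 67, 154 and 133. TMM gave 609 and 1322 lower calls in GM12878 and HepG2 and 430, 495, 624 and 664 higher. DESeq2 kept each count within 1.5 times (lower 488, 918, 1143 and 1067). With at least 40 barcodes, chosen after seeing the data, which leaves 513 constructs, calls were 146, 249, 268 and 276 lower and 63, 66, 136 and 112 higher, and the class difference was -0.21, -0.31 and -0.26 in GM12878, K562 and SK-N-SH. A plasmid minimum of 100 leaves 123 complete elements and 1475 constructs. Lower construct calls in K562 were then 752, elements 30, 64, 58 and 56 lower and, in GM12878, K562 and SK-N-SH, 7, 39 and 35 higher. The line test called 74, the enhancer test 29, 59, 113 and 99, and the class difference was -0.25, -0.36 and -0.29 in GM12878, K562 and SK-N-SH. Without any minimum it was -0.40 in SK-N-SH. On elements beside all enhancers it was -0.30, -0.40 and -0.33 in GM12878, K562 and SK-N-SH, and in the deposited fold changes -0.23, -0.50, -0.60 and -0.47. With a prior count of 5, elements higher were 122 for K562 and 107 for SK-N-SH, the line test called 218 and the enhancer test 202 in HepG2. Leaving out En09, En11, En19 or En21, elements higher in GM12878 were 6, 18, 3 or 6.

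RNA and plasmid libraries of the same number correlated in their deviations by -0.03 to 0.17, so the numbers were not taken as pairs. With the number as a replicate block, GM12878 gave 211 lower and 83 higher construct calls and 7 higher elements. The block left the other counts within 1.5 times, and the line test called 124. Leaving out single libraries gave 198 to 423 lower and 84 to 147 higher construct calls in GM12878, where each loss of a plasmid library brought the lower calls to 211 or fewer. The enhancer test called 103 to 113 in GM12878, and the class difference was -0.49 to -0.44 for K562 and -0.41 to -0.37 for SK-N-SH.

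Among named values that had passed their test and the class differences, signs turned in 20 cases, and in 28 further cases for named elements that had not passed. Of the latter, chr11:49981795 in HepG2 (-0.43) and chr17:61968002 in K562 (-0.88) passed as lower on summed random counts, and chr1:76144459 in K562 (0.42) as higher with a prior count of 5. The 20 were, with summed random counts, chr1:53304050 in HepG2 (-0.041) and K562 (-0.012), chr11:49981795 in K562 and SK-N-SH (-0.12 each), chr3:125463868 (-0.33) and chr14:61747022 (-0.051) in K562, chr4:12942876 in K562 (-0.39) and SK-N-SH (-0.21), and chr16:54856933 (-0.079) and chr17:61968002 (-0.44) in SK-N-SH. With TMM they were, beside En02, chr6:69880244 (-0.29) and chr16:66222729 (-0.19) in GM12878, chr3:84715170 (-1.20) and chr3:125463868 (-1.04) in HepG2, and chr3:125463868 (-1.39) and chrX:69674065 (-0.99) in SK-N-SH. In HepG2 chr1:76144459 turned to 0.32 with a prior count of 5 and to 0.13 without En11. The SK-N-SH difference beside En02 turned to 0.032 at a minimum of 100 and 0.0076 in the deposited values. Moving the zero itself shifts every construct beside an enhancer alike; other causes were not tested.

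Depth limits the weak enhancers most, where a median negative control gave under 10 RNA counts per library in K562 and SK-N-SH.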
